A study of Mus musculus with 8 samples.

Results

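The vascular endothelial and mural genes of the fetal dorsal root ganglion (DRG) were examined as a set of 33 genes, chosen by symbol as known genes of endothelium, pericytes and vascular smooth muscle. All 33 were found among the 55414 Ensembl genes counted in every library, and all 33 passed the filter on low counts that left 17721 genes for testing. They fall into 25 endothelial genes (10 of the cell surface and junctions, 5 receptor tyrosine kinases, 5 transcription factors, 5 of barrier and transport) and 8 mural genes (5 of pericytes, 3 of smooth muscle). The data were bulk RNA-seq counts from DRG of mouse embryos at E18.5, with 4 libraries of AD1 OE and 4 of Control. AD1 OE embryos carried AdvillinCre/+;Rosa26Dach1/+, so that Cre made from the Advillin locus, active in sensory neurons, released Dach1 and EGFP from a stop cassette in Rosa26. Control embryos were Advillin+/+;Rosa26Dach1/+, with the same silent Rosa26 allele and no Cre. Cre was thus under a neuronal and not a vessel promoter, the line was of mixed C57Bl/6J and CD1 background, and whole ganglia were taken. The libraries held 22339059 to 44025625 counted reads. The study counts the libraries of each group as embryos, and p-values measure the spread between them.

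Dach1 mRNA was 95.9 ± 5.28 CPM (reads scaled to a common library total, with TMM factors; SD, n = 4) in AD1 OE and 32.6 ± 1.64 CPM in Control (log2 fold change 1.56, SE 0.05, adjusted p = 1.77e-08 by edgeR's quasi-likelihood test with Benjamini-Hochberg adjustment), higher in the group that the labels give Cre. Xist and the Y-linked genes gave 1 female and 3 male libraries in AD1 OE (replicate 3 was the female) and 3 female and 1 male in Control (replicate 4 was the male). AD1 OE replicate 3 also held the most RNA of skeletal muscle, a tissue next to the ganglion. The summed CPM of 7 skeletal muscle genes was 184, 229, 676 and 131 in AD1 OE replicates 1 to 4, against 158 to 423 in Control. Results that rest on that library are given with and without it.

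Blood vessels are lined by endothelial cells, which are held together by junction proteins and respond to VEGF and angiopoietins through receptor tyrosine kinases. Factors of the ETS and SoxF families switch on much of the endothelial programme. Pericytes wrap capillaries and smooth muscle cells wrap larger vessels. The ganglion is densely supplied with capillaries, and those around its cell bodies are more permeable than the capillaries of the brain or nerve. Several of the genes are also made by other cells, among them Slc2a1 (glucose uptake in many cells), Ets1, Cd34 and Pdgfrb (fibroblasts as well) and Cspg4.

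ETS factors, of which Ets1 and Erg are members of the set, bind DNA around a GGAA core, and the form AGGAAG was searched for on both strands (CTTCCT when read on the other strand) in the 250 bases before each annotated start. RefSeq promoter sequences on GRCm38.p6, which precedes the build used for counting, were at hand for 21 of the 33 genes. The motif was present before at least 1 start of 9 of the 16 endothelial genes (Emcn, Cd34, Egfl7, Eng, Flt1, Tie1, Erg, Slco1a4 and Abcb1a) and of 0 of the 5 mural genes (Rgs5, Cspg4, Abcc9, Notch3 and Acta2), against 8734 of 27025 genes in the whole table (32.3%). Promoters of 3 endothelial surface genes and of 1 receptor are shown because they hold the motif and because their levels are described further on. They are written 5′ to 3′ on the gene's strand, with the motif in capitals. Eng lies on chr2:32646345-32646594 (plus strand), Egfl7 (its first listed start) on chr2:26580833-26581082 (plus), Emcn on chr3:137340828-137341077 (plus) and Tie1 on chr4:118489850-118490099 (minus).
Eng: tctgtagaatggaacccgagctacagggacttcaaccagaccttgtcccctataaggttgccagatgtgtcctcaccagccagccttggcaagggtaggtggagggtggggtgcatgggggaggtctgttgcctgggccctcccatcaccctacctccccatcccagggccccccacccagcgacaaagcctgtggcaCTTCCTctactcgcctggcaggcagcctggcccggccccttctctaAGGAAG
Egfl7: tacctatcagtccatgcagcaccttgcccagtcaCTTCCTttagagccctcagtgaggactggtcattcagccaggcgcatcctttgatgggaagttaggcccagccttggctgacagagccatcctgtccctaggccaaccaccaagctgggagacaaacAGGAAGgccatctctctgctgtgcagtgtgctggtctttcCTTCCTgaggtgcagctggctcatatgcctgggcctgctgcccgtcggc
Emcn: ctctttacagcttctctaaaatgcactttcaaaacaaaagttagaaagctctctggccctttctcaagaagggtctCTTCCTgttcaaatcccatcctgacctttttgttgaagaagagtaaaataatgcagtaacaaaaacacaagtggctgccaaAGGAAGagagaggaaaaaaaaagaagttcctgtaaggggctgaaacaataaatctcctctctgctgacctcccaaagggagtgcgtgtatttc
Tie1: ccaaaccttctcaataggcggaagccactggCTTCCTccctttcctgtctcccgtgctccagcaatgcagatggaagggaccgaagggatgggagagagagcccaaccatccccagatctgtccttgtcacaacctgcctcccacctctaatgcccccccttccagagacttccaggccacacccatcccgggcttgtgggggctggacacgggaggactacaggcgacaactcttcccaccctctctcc
Eng held the motif in both orientations, with 1 copy ending at the last base before the start. Egfl7 held 3 copies before the start shown, and 1 and 0 before its other listed starts. A match describes the letters of the sequence and says nothing on whether a factor was bound in the ganglion.

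Vessel RNA was present in every library, and the genes spanned a 59.7-fold range of level per length (CPM per kb of exon, mean of 8 libraries). Exon length joined the exons of all annotated transcripts of a gene, so the order depends on the annotation. By CPM alone, Rgs5 (81.7 CPM) lay above Slc2a1 (77.1 CPM), and Pecam1 (66.9 CPM) above Egfl7 (44.6 CPM). Slc2a1, the glucose transporter of barrier endothelium, was the highest at 21.98 CPM per kb, followed by the pericyte genes Rgs5 (a regulator of G protein signalling) at 18.0 CPM per kb and Pdgfrb (the PDGF-B receptor) at 14.3 CPM per kb. The highest genes that are mainly endothelial were Egfl7 (a secreted vessel matrix protein) at 12.5 CPM per kb, Plvap (the diaphragm protein of fenestrated and permeable capillaries) at 11.9 CPM per kb, Pecam1 (the junction molecule CD31) at 10.8 CPM per kb and Mfsd2a (a lipid transporter of barrier endothelium) at 10.2 CPM per kb. Acta2 (smooth muscle actin) was at 10.8 CPM per kb, whereas the smooth muscle genes Myh11 (myosin heavy chain) and Tagln (transgelin) were at 1.16 and 0.858 CPM per kb. Flt4 (VEGFR3, a receptor of lymphatic and sprouting endothelium) at 0.655 CPM per kb and Slco1a4 (an organic anion transporter of the blood-brain barrier) at 0.368 CPM per kb were the lowest. From one gene to the next in this order, only Slc2a1, Rgs5, Pdgfrb and Flt4 had ranges over the 8 libraries that lay clear of the gene below them, and all other neighbours overlapped. Permeable-capillary and barrier genes were thus found in the same ganglia, with Plvap (8.39 to 14.03 CPM per kb) overlapping Mfsd2a (8.51 to 10.96 CPM per kb). In whole ganglia, fewer vessel cells and less RNA per vessel cell cannot be told apart.

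**Figure D1:**
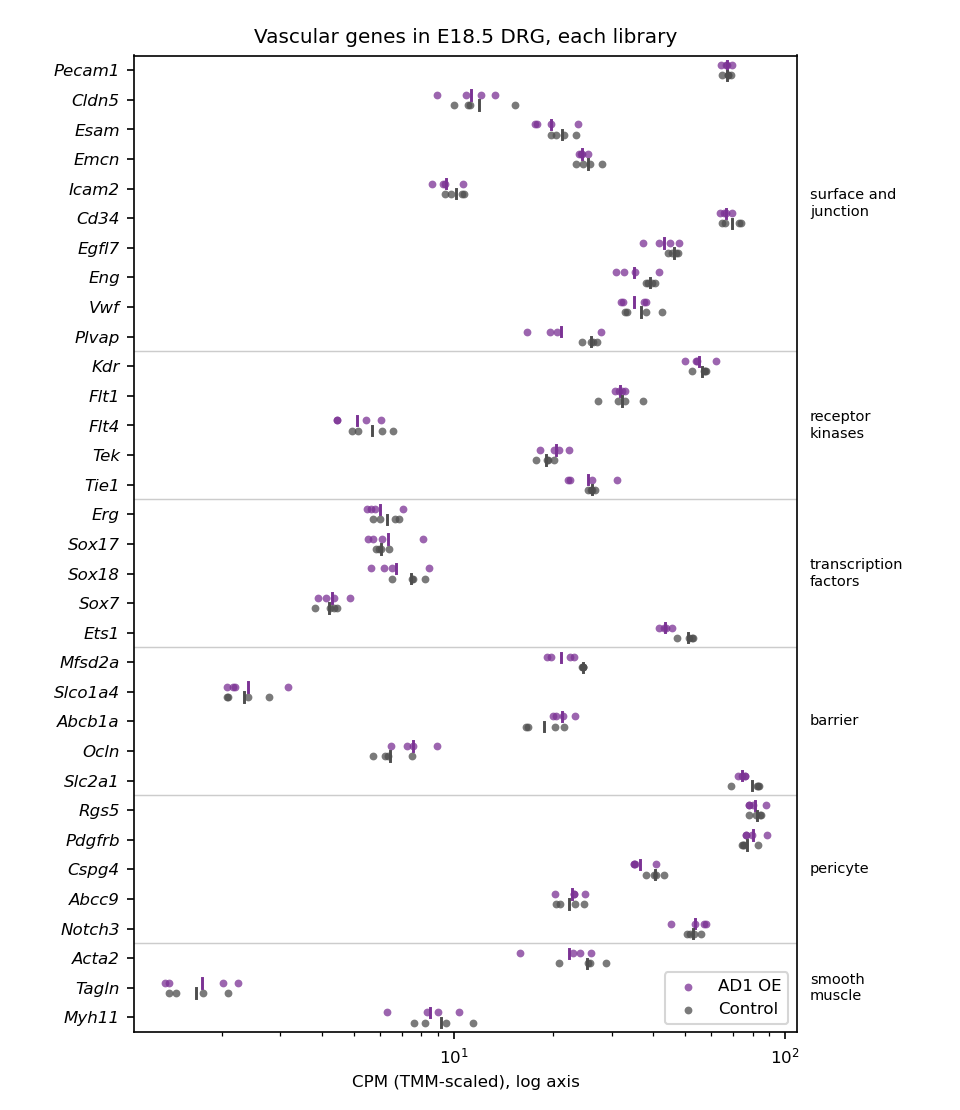
Levels of the 33 vascular genes (CPM scaled by TMM, log axis) in each library, with AD1 OE in purple, Control in grey and the mean of each group as a vertical bar. The dots of both groups overlap for all genes except Ets1 and Mfsd2a, and Plvap has 1 AD1 OE library far to the right of the other three.

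Of the 33 genes, 0 passed the study's thresholds (adjusted p under 0.005 and absolute log2 fold change over 0.25) between AD1 OE and Control, where 455 of all 17721 tested genes did (2.57%). Estimates were below 0 for 23 genes and above 0 for 10, with a median log2 fold change of -0.06, beside 0.002 over all tested genes. Because the groups differed in sex, the fit was repeated with sex as a covariate, which gave 15 estimates below 0 and 18 above, with a median of 0.009. At an unadjusted p under 0.05, met by 18.6% of all tested genes, 4 of the 33 were lower in AD1 OE (Ets1, Mfsd2a, Plvap and Cspg4) and 0 were higher. At an adjusted p under 0.05, met by 6.55% of tested genes, 1 of the 33 remained, Ets1. With sex as a covariate, 0 of the 33 had an adjusted p under 0.05. AD1 OE lay wholly below Control for 2 of the 33 (Ets1 and Mfsd2a), beside 7.26% of tested genes, and wholly above for 0, beside 5.69%. The shares of the 33 genes that passed were thus near or under those of all tested genes.

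The intervals limit how large a change could have gone unseen. All 33 of the 95% intervals lay within a log2 fold change of ±1, 31 within ±0.5 and 13 within ±0.25. The narrowest belonged to Pecam1, at -0.01 (-0.09 to 0.08), which is 99.6% of Control with an interval of 94.0 to 105.5%. The widest belonged to Tagln, at 0.09 (-0.37 to 0.54), a gene counted on as few as 31 reads in a library.

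**Figure D2:**
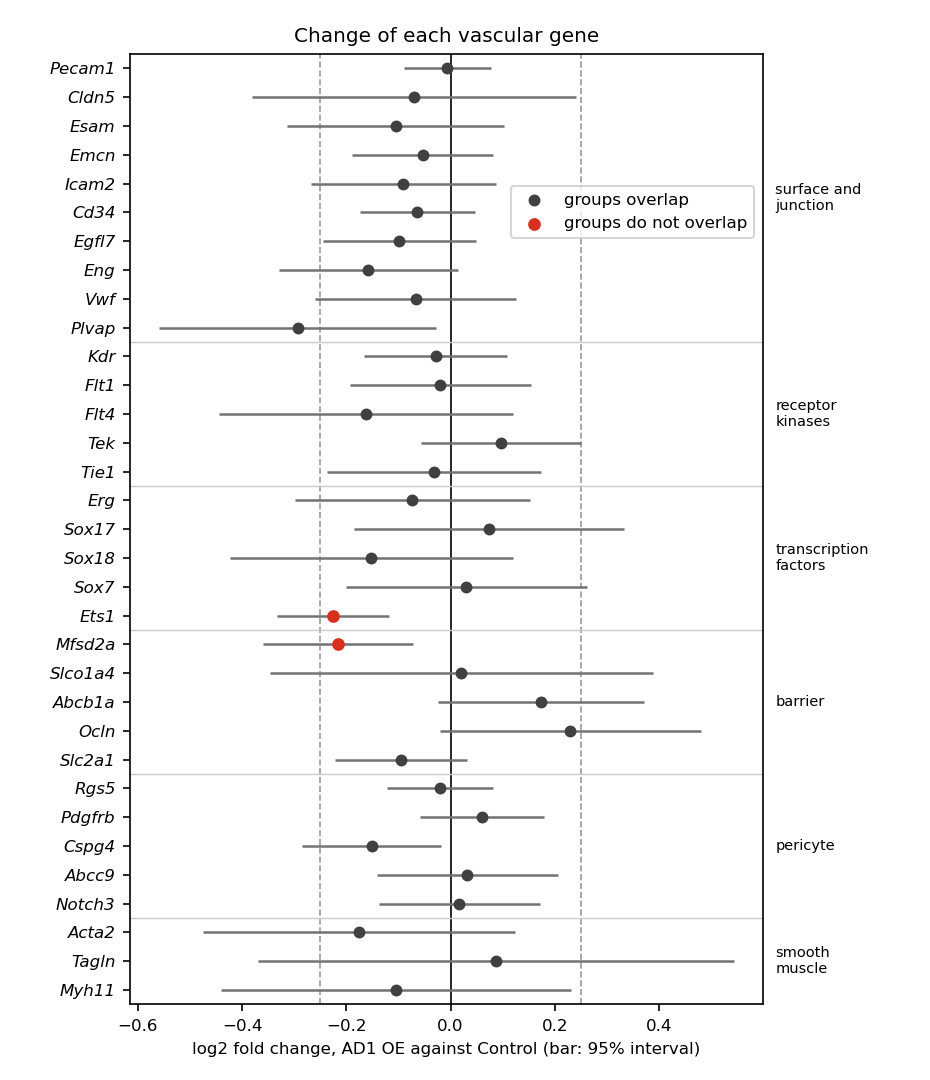
Log2 fold change of each vascular gene in AD1 OE against Control (edgeR), with its 95% interval as a bar, the line of no change at 0 and dashed lines at the study's limit of 0.25. Ets1 and Mfsd2a, in red, are the 2 genes whose groups do not overlap, and 29 of the 33 intervals cross 0.

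Among the endothelial surface and junction genes, all 10 estimates were below 0 (median -0.08), and 0 of the 10 passed the study's thresholds. With sex as a covariate 5 of the 10 estimates (Pecam1, Cldn5, Esam, Emcn and Vwf) turned above 0, at 0.01 to 0.09. Pecam1 was at 66.5, 67.0, 69.3 and 64.3 CPM in AD1 OE replicates 1 to 4 and at 64.7, 67.5, 68.7 and 67.4 CPM in Control. The 8 libraries lay almost on top of each other, with a coefficient of variation within groups of 2.82%, the smallest of the 33 genes. Egfl7 was at 45.1, 37.5, 47.9 and 41.8 in AD1 OE and at 47.6, 47.0, 45.7 and 44.6 CPM in Control. Its Control libraries were close together and AD1 OE replicates 2 and 4 lay below all of them (log2 fold change -0.10, adjusted p = 0.487, edgeR).

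Plvap was at 20.5, 16.7, 27.9 and 19.6 in AD1 OE and at 25.9, 26.4, 27.1 and 24.5 CPM in Control. AD1 OE replicates 1, 2 and 4 were below every Control library, and replicate 3 was above every one. Over all libraries the level was 81.6% of Control (interval 67.9 to 98.1%), with a log2 fold change of -0.29 (SE 0.12, adjusted p = 0.217 by edgeR). Without AD1 OE replicate 3, the log2 fold change was -0.44 with an adjusted p of 0.00447 (edgeR), and Plvap then passed the study's thresholds. With sex as a covariate, it was -0.15 with an adjusted p of 0.536 (edgeR). Within the male libraries, AD1 OE was at 16.7 to 20.5 CPM and the 1 Control library at 24.5 CPM, and within the females the 1 AD1 OE library was at 27.9 CPM and Control at 25.9 to 27.1 CPM. With 1 library on one side of each sex, no test within sex was made.

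Eng (endoglin, a TGF-beta co-receptor) was at 35.4, 31.0, 41.6 and 32.7 in AD1 OE and at 38.1, 38.7, 39.6 and 40.6 CPM in Control. Within AD1 OE the order of libraries was that of Plvap, and within Control it was not. Its log2 fold change was -0.16 (-0.33 to 0.01), and the adjusted p was 0.314 with all libraries and 0.0279 without AD1 OE replicate 3 (edgeR). With sex as a covariate, it was -0.10 with an adjusted p of 0.634. Cldn5 (claudin-5, the main claudin of tight endothelium) was among the most variable, at 8.89 to 13.3 in AD1 OE and 10.0 to 15.3 CPM in Control, with its highest value in Control replicate 1. Emcn (endomucin, of veins and capillaries), Icam2 and Esam (adhesion molecules), Cd34 (a sialomucin) and Vwf (the clotting factor stored in endothelium) lay between -0.11 and -0.05 on the log2 scale, with every interval holding 0.

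The receptor tyrosine kinases had 4 estimates below 0 and 1 above, and 0 of the 5 had an unadjusted p under 0.05. Kdr (VEGFR2, the main signalling receptor for VEGF-A) was at 54.4, 49.9, 62.1 and 53.9 in AD1 OE and at 52.5, 57.8, 57.0 and 57.5 CPM in Control. The groups overlapped fully, at 98.0% of Control with an interval of 89.1 to 107.8%. Tie1 (the orphan partner of the angiopoietin receptor) was at 26.2, 22.2, 31.2 and 22.5 in AD1 OE and 25.5 to 26.8 CPM in Control, so AD1 OE spread to both sides of a narrow Control group. Tek (the angiopoietin receptor TIE2) had the one estimate above 0, with 20.8, 22.4, 20.1 and 18.2 in AD1 OE and 20.2, 19.3, 19.1 and 17.7 CPM in Control (log2 fold change 0.10, adjusted p = 0.515, edgeR). Flt1 (VEGFR1, which binds VEGF and restrains it) was at 30.7 to 32.9 in AD1 OE and 27.4 to 37.3 CPM in Control, and Flt4 at 4.45 to 6.04 and 4.95 to 6.56 CPM.

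Of the endothelial transcription factors, Ets1 was the member with the smallest adjusted p of the 33 genes. It was at 43.8, 43.1, 45.7 and 41.8 in AD1 OE and at 47.2, 52.9, 51.3 and 52.4 CPM in Control. Every AD1 OE library lay below every Control library, at 85.6% of Control (interval 79.4 to 92.2%). The log2 fold change was -0.22 (SE 0.05, adjusted p = 0.0169, edgeR), which is under the study's limit on the fold change. Over the alternative fits the estimate stayed between -0.26 and -0.20, and the adjusted p lay between 0.00122 and 0.0624. With sex as a covariate the estimate was -0.22, and 0 of the 33 genes then had an adjusted p under 0.05 (edgeR). The direction was the same within the females (45.7 in AD1 OE and 47.2 to 52.9 CPM in Control) and within the males (41.8 to 43.8 CPM and 52.4 CPM). Each sex had 1 library on one side, so this was not tested. Because Ets1 is not limited to endothelium, the level in whole ganglia cannot be assigned to vessels.

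The other factors did not share that order. Erg (an ETS factor close to restricted to endothelium) was at 5.79, 5.48, 7.04 and 5.65 in AD1 OE and at 6.66, 6.85, 5.70 and 5.99 CPM in Control (log2 fold change -0.07, interval -0.30 to 0.15). Sox18 was at 6.51, 6.15, 8.45 and 5.61 in AD1 OE and at 7.56, 8.19, 7.47 and 6.50 CPM in Control (-0.15, interval -0.42 to 0.12). AD1 OE replicate 3 was again the highest library of its group for both. Sox17 (arterial) and Sox7, the other SoxF factors, had estimates of 0.07 and 0.03, also with replicate 3 the highest of AD1 OE.

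The barrier and transport genes gave 2 estimates below 0 and 3 above. Mfsd2a was at 23.0, 19.2, 22.4 and 19.8 in AD1 OE and at 24.6, 24.7, 24.4 and 24.7 CPM in Control. The Control libraries were nearly identical and every AD1 OE library was below them (86.1% of Control, log2 fold change -0.22, SE 0.07), but the adjusted p was 0.0839 (edgeR), and 0.0559 to 0.227 over the alternative fits. Slc2a1 was at 74.2, 72.3, 75.8 and 75.9 in AD1 OE and at 68.8, 83.8, 83.3 and 82.3 CPM in Control. Control replicate 1 stood below all other libraries, and without it the log2 fold change of -0.09 (adjusted p = 0.425) became -0.15 (adjusted p = 0.0273, edgeR). Abcb1a (the efflux pump P-glycoprotein) was at 20.4, 21.4, 23.3 and 19.9 in AD1 OE and at 16.8, 20.2, 16.5 and 21.5 CPM in Control (0.17, interval -0.02 to 0.37). Ocln (occludin, of tight junctions) had the highest estimate of the 33 genes at 0.23 (interval -0.02 to 0.48, adjusted p = 0.315, edgeR). Slco1a4 lay at 2.07 to 3.16 in AD1 OE and 2.07 to 2.77 CPM in Control.

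The mural genes were balanced, with 4 estimates below 0 and 4 above and a median of -0.002. Rgs5 was at 77.8, 80.2, 78.3 and 88.2 in AD1 OE and at 84.9, 78.2, 81.95 and 84.1 CPM in Control, which is 98.6% of Control with an interval of 91.9 to 105.8%. Pdgfrb was at 79.6, 76.3, 88.3 and 76.6 in AD1 OE and at 75.5, 74.7, 74.1 and 83.2 CPM in Control (0.06, interval -0.06 to 0.18). Each group held 1 library above the rest. Notch3 (the receptor that matures mural cells) was at 57.1, 45.3, 58.1 and 53.5 in AD1 OE and at 51.8, 50.8, 53.3 and 55.9 CPM in Control (0.02, interval -0.14 to 0.17).

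Cspg4 (the proteoglycan NG2) was the mural gene with an unadjusted p under 0.05. It was at 35.0, 35.3, 40.8 and 35.1 in AD1 OE and at 43.1, 38.1, 40.2 and 40.9 CPM in Control, so that only AD1 OE replicate 3 reached into the Control range. The log2 fold change was -0.15 (SE 0.06, adjusted p = 0.203), and without replicate 3 it was -0.20 (adjusted p = 0.0472, edgeR). With sex as a covariate the estimate was -0.11 (adjusted p = 0.496), and the female AD1 OE library was at 1.01 of the female Controls. Abcc9 (a potassium channel subunit of pericytes) was at 20.2 to 24.9 in AD1 OE and 20.4 to 24.8 CPM in Control.

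Smooth muscle genes had the widest spread between libraries. Acta2 was at 23.0, 24.1, 26.1 and 15.9 in AD1 OE and at 25.8, 25.4, 28.8 and 20.8 CPM in Control, with replicate 4 the lowest of each group (-0.18, interval -0.47 to 0.12). Myh11 was at 10.3, 8.33, 8.99 and 6.30 in AD1 OE and at 7.60, 8.22, 11.4 and 9.46 CPM in Control (-0.10, interval -0.44 to 0.23). Tagln was at 2.24, 1.38, 1.34 and 2.02 in AD1 OE and at 1.75, 2.09, 1.45 and 1.38 CPM in Control. Of the exon bases of Tagln, 62.4% are shared with the antisense gene Gm48529, and use of strand in counting is not stated, so its level is uncertain.

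The spread of the 33 genes within groups was above that of all tested genes in their range of mean CPM, which were not matched to them in level. Their median coefficient of variation was 9.11%, from 2.82% for Pecam1 to 23.0% for Tagln, beside 6.95% for the 11247 tested genes in the same range of mean CPM. In AD1 OE this spread had a common direction. Replicate 3 was the highest of the 4 for 19 of the 25 endothelial genes (76.0%) and for 5 of the 8 mural genes, where it was the highest for 29.8% of all tested genes. Replicates 2 and 4 were each the lowest for 11 of the 25, beside 27.6% and 25.2% of all tested genes. In Control no library was the highest for more than 8 of the 25. Control replicates 4 and 1 were the lowest for 10 and 9 of the 25, beside 21.4% and 32.6% of all tested genes. Control replicate 4 was thus the lowest more often than over all tested genes (40.0% against 21.4%), and replicate 1 was near its share there (36.0% against 32.6%). The 14 further endothelial genes outside the set (among them Cdh5 and Cd93) gave a like count in AD1 OE. There, replicate 3 was the highest for 9 of 14 and replicate 4 the lowest for 10 of 14.

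**Figure D3:**
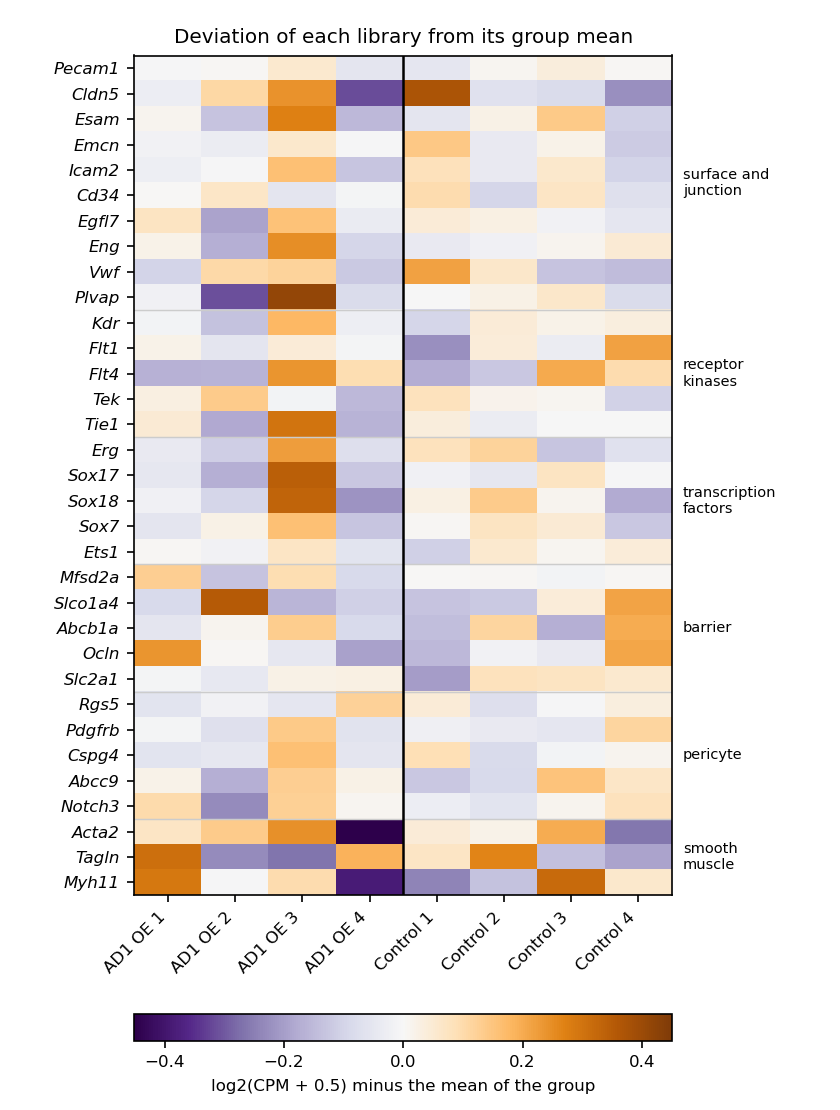
Deviation of each library from the mean of its group for the 33 vascular genes, on the log2(CPM + 0.5) scale, with orange above and purple below the mean. AD1 OE replicate 3 is orange in most endothelial rows, as the highest of its group in 19 of 25.

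Summed over the 25 endothelial genes, the level was 664, 640, 719 and 635 CPM in AD1 OE replicates 1 to 4 and 689, 706, 706 and 697 CPM in Control. Of the AD1 OE libraries, 3 lay below every Control library and replicate 3 lay above every one. The difference of the means was -34.8 CPM with all libraries and -53.1 CPM without replicate 3, when AD1 OE stood at 0.924 of Control. Replicate 3 was also the only female library of its group and held the most skeletal muscle RNA, and the part of either in its level was not tested. Among males AD1 OE was at 0.928 of the single Control library, and the single female AD1 OE library was at 1.03 of the female Controls. The median log2 fold change of the 33 genes moved from -0.06 to 0.009 with sex as a covariate and to -0.09 without replicate 3. Without that library, estimates were below 0 for 26 of the 33 genes, 8 had an unadjusted p under 0.05, all lower, beside 20.2% of the 18058 genes tested in that fit, and 1 (Plvap) passed the study's thresholds, beside 2.33%. The 8 mural genes summed to 307, 291, 327 and 301 in AD1 OE and 311, 298, 316 and 319 CPM in Control, a difference of -4.39 CPM that became 0.819 CPM without AD1 OE replicate 2 and -11.06 CPM without replicate 3.

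**Figure D4:**
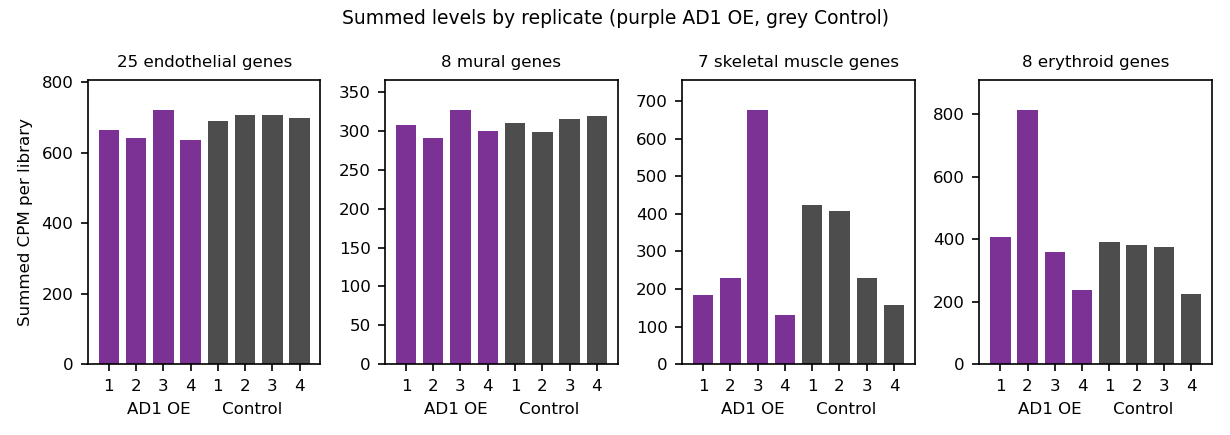
Summed CPM in each library for the 25 endothelial genes, the 8 mural genes, 7 skeletal muscle genes and 8 erythroid genes, with AD1 OE in purple and Control in grey and axes starting at 0. The endothelial sum varies from 635 to 719 CPM, whereas the skeletal muscle sum varies from 131 to 676 CPM and is highest in AD1 OE replicate 3.

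Blood itself varied without this order. The summed CPM of 8 erythroid genes was 408, 812, 359 and 237 in AD1 OE and 392, 382, 374 and 225 in Control, so the library with the most red cell RNA, AD1 OE replicate 2, had one of the lowest endothelial sums.

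Other genes of the vascular pathways were read from lists of 72 genes, of which 71 were tested. The study's thresholds were passed by 0 of the 71, with 36 estimates above 0, 35 below and a median of 0.001. DESeq2, and edgeR with no expression filter, each called 1 of the other vascular genes at these thresholds, Ndufa4l2. At an unadjusted p under 0.05, met by 18.6% of all tested genes, 6 of the 71 were higher and 2 were lower. Of the 23 ligands and receptor partners, Vegfa (the main VEGF ligand) was at 158, 149, 160 and 176 in AD1 OE and at 126, 150, 142 and 145 CPM in Control, with overlapping groups (log2 fold change 0.19, SE 0.06, adjusted p = 0.0932, edgeR). Nrp1, the VEGF and semaphorin co-receptor, was the highest of that list at 217 ± 6.27 and 206 ± 6.89 CPM (SD, n = 4 each).

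The arterial and venous list (15 genes) held 0 genes at an unadjusted p under 0.05, and its most abundant genes were the Notch ligand Jag2 (115 ± 8.79 and 110 ± 0.38 CPM) and the arterial ephrin Efnb2 (84.1 ± 4.41 and 78.8 ± 4.17 CPM). Cdh5 (VE-cadherin, the adherens junction protein of endothelium) was at 112 ± 14.4 in AD1 OE and 106 ± 2.66 CPM in Control, again with its highest value, 129 CPM, in AD1 OE replicate 3. Cd93 was at 43.3 ± 1.17 and 45.4 ± 3.23 CPM. The lymphatic genes Lyve1 (18.47 ± 1.77 and 18.7 ± 1.28 CPM) and Pdpn (39.5 ± 2.22 and 37.1 ± 0.89 CPM, also made by fibroblasts) were detected in every library. Prox1, of the same list, was low, at 2.12 ± 0.26 and 2.27 ± 0.54 CPM, and Ccl21a was too low to be tested. Prox1 was named after its values were seen. Whether lymphatic endothelium was present was not tested.

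Of the 71 genes, 1 had an adjusted p under 0.05, beside 6.55% of all tested genes. This was Ndufa4l2 (a mitochondrial protein induced by low oxygen), from the further pericyte list, at 0.0341 (edgeR). It was at 6.24, 5.39, 7.80 and 7.12 in AD1 OE and at 7.38, 11.3, 10.9 and 9.55 CPM in Control, a log2 fold change of -0.56 (SE 0.14) with groups that overlapped at Control replicate 1. Ndufa4l2 was named after its values were seen. Vtn and Anpep, the most abundant of that list, were at 105 ± 14.7 and 98.7 ± 7.77 CPM and at 34.5 ± 2.82 and 29.9 ± 2.74 CPM. Of the further smooth muscle genes, Smtn (smoothelin) was at 41.0 ± 1.78 and 36.3 ± 1.96 CPM and Myl9 at 33.4 ± 2.82 and 35.0 ± 3.75 CPM, each with an adjusted p above the threshold.

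Fibroblast and meningeal genes, read because such cells make several of the 33 genes, had 6 of 8 estimates above 0 and a median log2 fold change of 0.13, with 0 of 8 past the study's thresholds. At an unadjusted p under 0.05, met by 18.6% of all tested genes, 3 were higher (Col1a2, Col3a1 and Pdgfra) and 1 was lower (Dcn). The most abundant, the fibrillar collagen genes Col3a1 and Col1a2, were at 2305 ± 157 and 2060 ± 119 CPM and at 1829 ± 159 and 1604 ± 181 CPM (SD, n = 4 each, AD1 OE first). Pdgfra, the PDGF receptor of fibroblasts, was at 112, 104, 103 and 93.7 in AD1 OE and at 90.3, 85.2, 84.1 and 92.4 CPM in Control. AD1 OE lay wholly above Control for Pdgfra, as for 5.69% of all tested genes (log2 fold change 0.23, SE 0.05, adjusted p = 0.0232, edgeR). Pdgfra and Dcn were named after their values were seen. The part of fibroblast RNA in the levels of Pdgfrb, Cd34 and Ets1, which fibroblasts also make, was not tested.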

How the data were processed

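RNA of whole E18.5 ganglia was made into libraries with a stranded mRNA kit and sequenced on a NovaSeq6000. The authors aligned reads to GRCm39 with STAR 2.7.8a and assigned them to Ensembl genes with featureCounts 2.0.1, after bcl2fastq 2.20.0.422 (versions from the submitters' processing notes), and deposited raw counts per library. Whether strand was used in counting is not given in the sources used here.

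Symbols, exon lengths and shared exons came from GENCODE M21, which named 52081 of the 55414 IDs. Counts were filtered by filterByExpr, scaled by TMM and tested with edgeR 4.0.16 in R 4.3.3 (quasi-likelihood test, genotype only, all 8 libraries), with Benjamini-Hochberg adjustment over 17721 genes. CPM per kb divides by exon bases joined over all annotated transcripts of a gene. Biological variation between libraries was 8.22%. On simulated counts with 200 changed genes, the test made 150 calls, 3 of them false, and found 62% of genes changed by a log2 value of 0.6.

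The members and lists were chosen with earlier results of these data known. Values in every library are given for the 3 members highest per length in each list and for members with an unadjusted p under 0.05 or groups that do not overlap. Eng met none of these criteria and was described in every library after its values were seen. Of other lists, called genes and the 2 most abundant are named, except for 1 gene that is not reported here. Alternatives were DESeq2 1.42.0, limma-voom (limma 3.58.1), other scalings, filters and thresholds, a replicate block, sex as a covariate and leaving out each library.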

Additional observations from a re-analysis of the deposited data

Results flagged for a closer look

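In 5 of the 70 groups of 4 libraries examined for the vascular genes, 1 library lay far from the other three by Dixon's criterion, which flags about 1 group in 20 by chance. Kdr was lowest in Control replicate 1 (52.47 CPM, next 56.95 CPM). Slc2a1 was lowest in the same library (68.8 CPM, next 82.35 CPM), and its change passed an adjusted p of 0.05 without it, as described above. Slco1a4 was highest in AD1 OE replicate 2 (3.163 CPM, next 2.193 CPM). Pdgfrb was highest in Control replicate 4 (83.17 CPM, next 75.55 CPM), the male library of that group. Cspg4 was highest in AD1 OE replicate 3 (40.78 CPM, next 35.29 CPM), the female library of that group.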

How the results depend on the processing

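Dach1 kept its direction and its call in every alternative. The count of all genes called, 455 with the chosen settings, was 747 with no expression filter, 1161 when an adjusted p below 0.05 was the only threshold, 129 with an adjusted p under 0.05 and a log2 fold change over 1, and 289 to 420 when 1 library was left out (289 without AD1 OE replicate 1). The count of vascular members called was 0 except when an adjusted p below 0.05 was the only threshold (1, Ets1, -0.22) and without AD1 OE replicate 3 (1, Plvap, -0.44), so it ranged from 0 to 1 over the left-out libraries. Of the other vascular genes, 1 was called by DESeq2, 1 with no expression filter and 1 under that single threshold, each time Ndufa4l2. The median log2 fold change of the members was 0.00924 with sex as a covariate, and -0.09 to -0.02 over the left-out libraries. The cause was not tested. Over the 16 other fits, 18 of the 33 members' estimates changed sign at least once, none of them called.

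The libraries numbered 4 deviated together (correlation 0.31), and those numbered 1, 2 and 3 did not (-0.01, -0.05 and -0.04), so the replicate numbers were not taken to pair the libraries. Both libraries numbered 4 were male, as were AD1 OE replicates 1 and 2. The highest correlations of AD1 OE replicates 1 and 2 with a Control library of another number were 0.045 and 0.044. The cause of the correlation of 0.31 was not tested. With the replicate block, 348 genes and 0 members were called, and the members' median was -0.06. Low counts limit Tagln and Slco1a4, which had 31 and 46 reads in their lowest library.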

Other observations

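Of the lists for other cell types, the perineurium, which sheathes the ganglion and nerve outside the vessels, held the only gene that passed the study's thresholds. This was 1 of the 4 genes of that list, beside 2.57% of all tested genes. The list had 2 estimates above 0 and 2 below, with a median log2 fold change of 0.03. Klf5, a Kruppel-like transcription factor that is not limited to this sheath, was at 34.2, 38.4, 35.5 and 32.6 in AD1 OE and at 55.3, 56.7, 53.9 and 55.4 CPM in Control (log2 fold change -0.66, SE 0.05, adjusted p = 1.28e-05, edgeR). Every AD1 OE library was far below every Control library. The tight junction gene Cldn1 of the same list was at 53.1 ± 5.12 and 51.1 ± 7.16 CPM (SD, n = 4 each).

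Of 8 genes induced by low oxygen, 0 passed the study's thresholds, and the median log2 fold change was 0.01. Ldha, the most abundant of them, was at 396 to 435 in AD1 OE and 441 to 478 CPM in Control (-0.15, adjusted p = 0.0707, edgeR), and Pdk1 at 79.7 ± 4.66 and 77.4 ± 3.62 CPM. The groups of 3 of the 8 did not overlap, with AD1 OE below Control for Ldha and Ankrd37 and above it for Egln3 (24.4 to 26.5 against 20.04 to 23.6 CPM), where 7.26% of all tested genes lay wholly below and 5.69% wholly above. Ankrd37 and Egln3 were named after their values were seen. The macrophage genes, whose cells lie along vessels, had a median of -0.07 with 0 of 8 called, and Mrc1, a marker of perivascular macrophages, was at 34.0 ± 4.68 and 33.8 ± 2.43 CPM. Csf1r was at 28.5 ± 3.97 and 29.7 ± 1.60 CPM.

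Abundant genes of the remaining lists, AD1 OE first, were the neuronal Stmn2 (2292 ± 44.9 and 2341 ± 75.2 CPM) and Prph (2062 ± 182 and 2098 ± 100.3 CPM), and the glial Fabp7 (225 ± 12.2 and 269 ± 39.2 CPM). The globins Hbb-bs (249.8 ± 138 and 191 ± 44.5 CPM) and Hbb-bt (70.9 ± 38.2 and 54.6 ± 13.8 CPM) and the muscle genes Acta1 (87.8 ± 59.9 and 90.1 ± 41.5 CPM) and Myh8 (47.9 ± 39.1 and 63.5 ± 31.7 CPM) had SDs larger than the differences of their group means in at least 1 group. None of these genes passed the study's thresholds.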
